A study of Mus musculus with 6 samples.

Results

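The genes described here are those of the 8 nicotinic acetylcholine receptor subunits Chrna3, Chrna4, Chrna5, Chrna6, Chrna7, Chrnb2, Chrnb3 and Chrnb4, taken by symbol from a table of 23337 genes. All 8 were found, and all 8 passed the filter on low values, set at a mean of 10 normalized counts, as did 13175 genes in all. RNA was sequenced from dopaminergic neurons sorted out of the SNc, the pars compacta of the substantia nigra, of adult C57BL/6 mice that all carried the alleles Sox6-FSF-Cre, Th-2A-Flpo and RC-Frepe. In this intersectional design the Flp recombinase is made from the Th locus, Cre is made from the Sox6 allele, and the reporter gives GFP or mCherry according to which recombinases a cell has had. Neurons sorted for GFP form the Sox6+ group and neurons sorted for mCherry form the Sox6- group, with 3 libraries each, numbered 103, 825 and 1211 in both groups. The reporter records recombination at any time before the sort, and the Th locus decides which cells can be labelled at all. The labels do not say whether libraries of 1 number came from the same animals, or whether the 3 libraries of a group came from separate animals, so p-values measure the spread between these libraries. The comparison asks how the subunit genes differ between dopaminergic neurons of the SNc with and without Sox6.

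Nicotinic receptors are cation channels opened by acetylcholine, each built from several subunits around a pore. Alpha subunits such as those of Chrna4, Chrna6 and Chrna3 form the acetylcholine site together with a neighbouring beta subunit, Chrnb2 or Chrnb4, while Chrna5 and Chrnb3 encode accessory subunits and Chrna7 can form a receptor of its own. Midbrain dopamine neurons are known for receptors that hold the alpha6, beta3, alpha4 and beta2 subunits, through which acetylcholine of striatal interneurons acts on dopamine axons. Receptors of alpha3 with beta4 are best known from the medial habenula and from autonomic ganglia.

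The libraries held between 10397924 and 12952768 reads in genes. Sox6, which defines the sort, lay at 841, 461 and 389 normalized read counts in Sox6+ libraries 103, 825 and 1211, against 104, 18.1 and 36.2 in Sox6- ones. All 9 dopaminergic markers were detected in every library, with a summed level of 113752 to 219692 in Sox6+ and 41287 to 141962 in Sox6- libraries. Libraries 103 and 1211 of the Sox6- group held the lowest sums. Markers of glutamatergic neurons (Slc17a6, Slc17a7 and Slc17a8) summed to 163 to 999 in Sox6+ and 2263 to 4815 in Sox6- libraries, with no overlap. Slc17a6 made up most of these sums, at 873, 163 and 764 in Sox6+ libraries 103, 825 and 1211, against 2496, 2237 and 4815 in Sox6- ones. Slc17a7 lay at 126 and 104 in Sox6+ and Sox6- library 103 and at 0 elsewhere, and Slc17a8 at 26.2 or lower. Of all tested genes, 17.0% were separated in either direction. Sox6+ library 825 stood apart in its macrophage and microglia markers, which summed to 27925 there, against 11.1 and 35.5 in the other Sox6+ libraries and 8.35 to 20.1 in the Sox6- libraries. Lyz2 alone made up 26494 of that sum, Tyrobp 1035, Ptprc 336 and Csf1r 58.1, while C1qa, C1qb and Aif1 were at 0 and Cx3cr1 at 2.28 there. The part of these markers in any result below was not tested, and values without single libraries stand beside the results of the subunit genes.

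Chrna6 was the most abundant subunit transcript in every library, and the transcripts of Chrna3, Chrna4, Chrna6 and Chrnb2 were each higher in Sox6+ than in Sox6- neurons within all 3 library numbers. None of the 8 genes passed the threshold of 0.05 on the adjusted p (limma, Benjamini-Hochberg over 13175 genes), where 0.304% of all tested genes did in either direction and 0.129% were higher in Sox6+ neurons. At an unadjusted limma p under 0.05, 3 were higher in Sox6+ neurons (Chrna3, Chrna4 and Chrnb2) and none lower, against 5.21% of all genes higher and 11.4% in either direction. The edgeR quasi-likelihood test on recovered reads called none of the 8, where it called 1 gene higher and 5 lower of 13175. DESeq2 on those reads called Chrna3, where it called 171 genes higher and 216 lower. In the authors' deposited table Chrna3 was also the only member with an adjusted p under 0.05, where 1.25% of genes were called higher in Sox6+ neurons and 2.83% in either direction. The log2 difference was positive for 6 of the 8 genes, as for 48.1% of all genes, with a median of 0.94 against -0.021 over all genes. The 3 Sox6+ libraries lay above the 3 Sox6- libraries for 2 of the 8 (Chrna3 and Chrnb2), against 7.86% of all genes, and 17.0% of all genes were separated in either direction. Being higher within all 3 library numbers held for 4 of the 8, against 19.0% of all genes. In sorted bulk RNA, fewer cells with a transcript and less transcript per cell cannot be told apart.

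**Figure D1:**
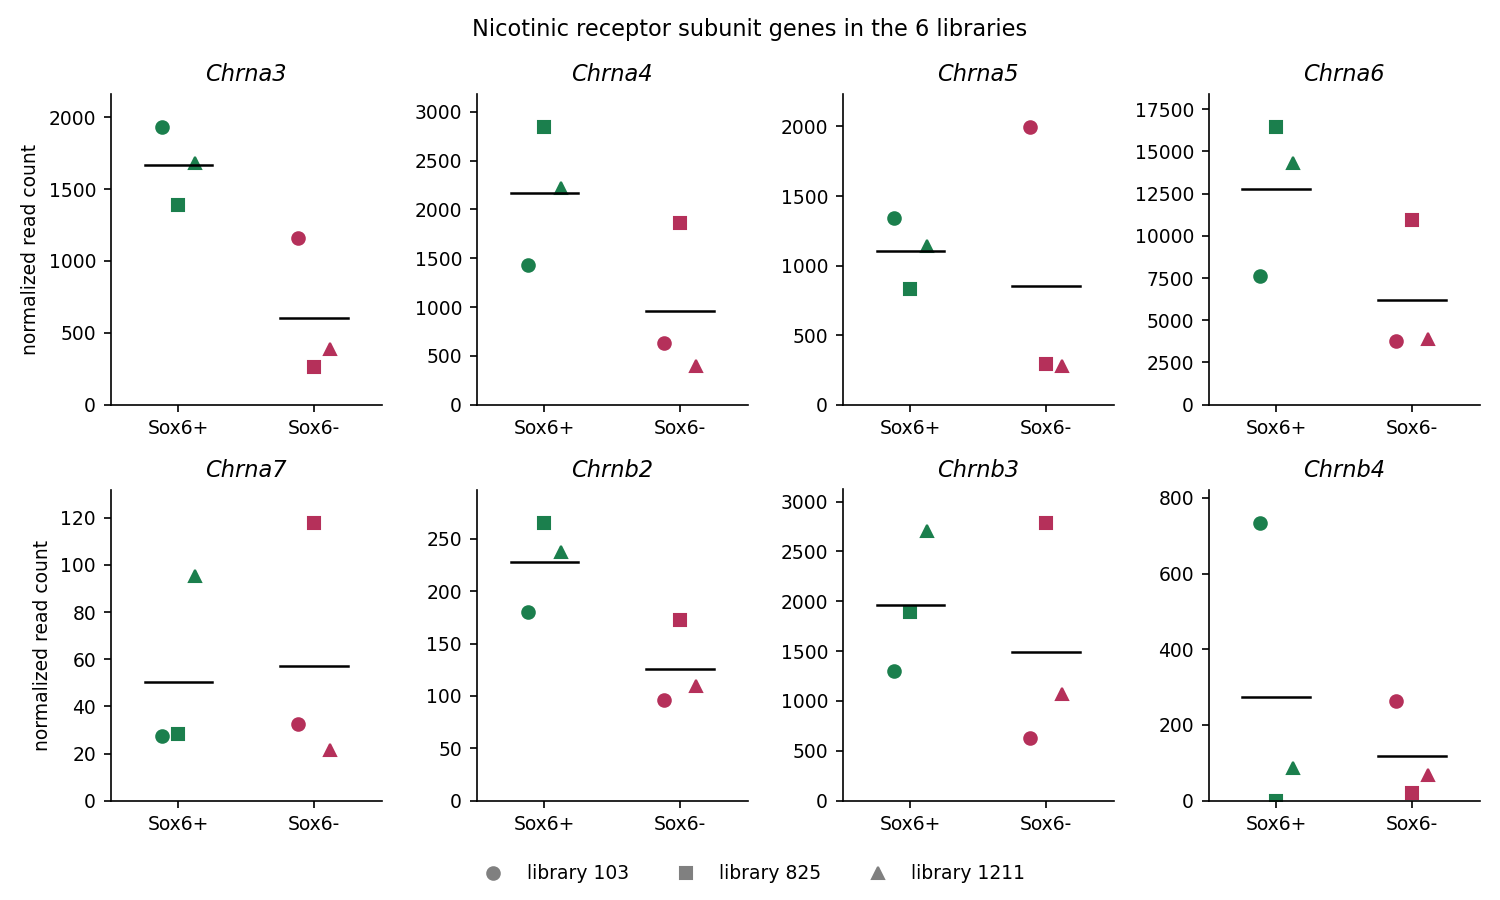
Normalized read counts of the 8 subunit genes (y axis, linear, from 0, scaled per gene) in the Sox6+ and Sox6- groups; each point is 1 library, its shape the library number, and the bar is the group mean of 3 libraries. Only in the panels of Chrna3 and Chrnb2 do all 3 Sox6+ points lie above all 3 Sox6- points, and in the Chrnb4 panel Sox6+ library 825 lies at 0.

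Of the 8 genes, 5 lie in a pair of clusters, given here on GRCm38. On chromosome 9, Chrna5 (54980880 to 55007779, plus strand), Chrna3 (55010111 to 55026562, minus strand) and Chrnb4 (55028154 to 55048779, minus strand) are neighbours, with 2331 bases between Chrna5 and Chrna3 and 1591 between Chrna3 and Chrnb4. On chromosome 8, Chrnb3 (27368711 to 27399730, plus strand) and Chrna6 (27403212 to 27413944, minus strand) end 3481 bases apart. Chrna4 lies on chromosome 2 from 181018380 to 181043546, Chrnb2 on chromosome 3 from 89746195 to 89764632 and Chrna7 on chromosome 7 from 63098692 to 63212569, all on the minus strand. The antisense gene Gm47877 lies within Chrnb4 on the other strand and shares no exon bases with it. For the neighbours on chromosome 9, the log2 differences within numbers 103, 825 and 1211 were 0.74, 2.40 and 2.11 for Chrna3, -0.58, 1.51 and 2.04 for Chrna5, and 1.48, -4.33 and 0.34 for Chrnb4. Chrna3 was thus higher in Sox6+ neurons within every number and its neighbours were not.

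The 250 bases before the RefSeq start are printed for the 2 genes whose groups did not overlap, Chrna3 and Chrnb2, and for the neighbours of Chrna3, Chrna5 and Chrnb4, whose groups did. They are RefSeq sequences of build GRCm38.p6, 5′ to 3′ on the strand of the gene, at chr9:55026563-55026812 for Chrna3, chr3:89764633-89764882 for Chrnb2, chr9:54980630-54980879 for the outer start of Chrna5 and chr9:55048545-55048794 for Chrnb4. RefSeq starts can differ from the GENCODE spans given above. The Chrnb4 window lies mostly inside its span, which ends at 55048779. The windows of Chrna4, Chrna7 and the inner start of Chrna5, searched below, also overlap their spans. Capitals mark the letters ACAAT or ATTGT, the core that Sox proteins are known to bind, searched on both strands.
Chrna3: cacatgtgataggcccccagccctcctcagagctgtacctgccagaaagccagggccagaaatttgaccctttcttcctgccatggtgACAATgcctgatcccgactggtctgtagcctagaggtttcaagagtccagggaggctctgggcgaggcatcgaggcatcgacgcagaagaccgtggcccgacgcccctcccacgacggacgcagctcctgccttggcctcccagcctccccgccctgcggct
Chrnb2: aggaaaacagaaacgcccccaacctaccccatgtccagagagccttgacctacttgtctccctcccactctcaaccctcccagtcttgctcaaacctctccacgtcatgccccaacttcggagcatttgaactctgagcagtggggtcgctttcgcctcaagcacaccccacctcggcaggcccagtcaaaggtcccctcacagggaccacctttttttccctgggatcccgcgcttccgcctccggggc
Chrna5: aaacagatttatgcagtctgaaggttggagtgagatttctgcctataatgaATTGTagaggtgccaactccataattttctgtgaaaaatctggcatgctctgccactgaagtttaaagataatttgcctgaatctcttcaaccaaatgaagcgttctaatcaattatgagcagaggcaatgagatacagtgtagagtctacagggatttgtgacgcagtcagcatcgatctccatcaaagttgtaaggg
Chrnb4: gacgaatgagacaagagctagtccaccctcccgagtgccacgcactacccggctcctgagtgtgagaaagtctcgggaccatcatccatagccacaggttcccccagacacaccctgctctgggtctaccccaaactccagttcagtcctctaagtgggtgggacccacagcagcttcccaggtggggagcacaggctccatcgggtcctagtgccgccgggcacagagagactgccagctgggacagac
The core was found 1 time in the window of Chrna3 and 1 time in each of the windows of the 2 starts of Chrna5, and 0 times in those of Chrnb2, Chrnb4, Chrna4 and Chrna7, while 27.7% of 32851 promoter windows of the same length hold it. The GC box GGGCGG, or CCGCCC on the other strand, was found 1 time for Chrna3, 3 times for Chrna4, 4 times at the inner start of Chrna5 and 1 time for Chrna7, and 32.7% of all windows hold it. Matches to these 2 motifs cannot overlap each other. Of 3 further motifs searched on both strands, the E box CANNTG, which can overlap the Sox core, was found 1 or 2 times in every window except that of Chrna4, with 66.2% of all windows holding it. The TATA box TATAAA, held by 12.4% of all windows, and AAAGGTCA, the site known for Nr4a2 and held by 1.34%, were found in none of the 7 windows of these genes. A match describes the letters of the window and is not a binding site.

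Chrna6, the alpha subunit most typical of dopamine neurons, lay at 7637, 16461 and 14313 normalized counts in Sox6+ libraries 103, 825 and 1211. Its Sox6- values were 3788, 10965 and 3893 in the same order of numbers. The groups overlapped, since Sox6- library 825 lay above Sox6+ library 103. Means were 12803 ± 4602 in Sox6+ and 6215 ± 4114 in Sox6- neurons (SD, n = 3 each). This gave a log2 difference of 1.16 (SE 0.50, adjusted p = 0.452, limma), with a 95% interval from -0.057 to 2.37. Within numbers 103, 825 and 1211 it was 1.01, 0.59 and 1.88.

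Chrna4, the alpha subunit of the common brain receptor of high nicotine affinity, lay at 1432, 2846 and 2218 in Sox6+ libraries 103, 825 and 1211 against 628, 1862 and 401 in Sox6- ones, so that again only Sox6- library 825 reached into the Sox6+ range. Limma put the log2 difference at 1.42 (SE 0.58, adjusted p = 0.437). The means were 2165 ± 708 in Sox6+ and 964 ± 786 in Sox6- neurons (SD, n = 3 each). With single libraries left out, the log2 difference of Chrna6 ran between 0.90 without Sox6- library 103 and 1.66 without Sox6- library 825, with adjusted p of 0.697 and 0.0794 (limma). That of Chrna4 ran between 0.94 without Sox6- library 1211 and 2.05 without Sox6- library 825, with adjusted p of 0.869 and 0.0602 (limma).

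Chrnb3, the accessory subunit found with alpha6, lay at 1302, 1894 and 2704 in Sox6+ libraries 103, 825 and 1211. Its Sox6- values were 630.3, 2787 and 1068. The highest value of all 6 was that of Sox6- library 825, and within number 825 the log2 difference was -0.56, against 1.05 and 1.34 within 103 and 1211. Over the groups it was 0.61 with a 95% interval from -0.76 to 1.98 and an adjusted p of 0.723 (limma). The interval thus holds 0 as well as differences in both directions. Leaving out Sox6- library 103 gave 0.13, leaving out Sox6+ library 1211 gave 0.35 and leaving out Sox6- library 825 gave 1.197, with adjusted p of 0.962, 0.883 and 0.261 (limma), and edgeR gave 0.38.

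Chrnb2, the beta subunit that partners alpha4 and alpha6, lay at 181, 265 and 237 in Sox6+ libraries 103, 825 and 1211, against 95.9, 172 and 109 in Sox6- ones. The groups did not overlap, though the lowest Sox6+ value and the highest Sox6- value lay close together. Limma gave a log2 difference of 0.88 (SE 0.33, adjusted p = 0.375), which was 0.91, 0.62 and 1.11 within numbers 103, 825 and 1211. An exact permutation test, two-sided, gave 0.1, below which 3 against 3 cannot go. Exons of Adar, an RNA-editing enzyme gene on the opposite strand, share 1365 bases with those of Chrnb2, or 16.3% of its exon length. The library kit keeps strand, but whether the counting used it is not given in the sources used here. Adar averaged 335 ± 76.8 in Sox6+ and 451 ± 91.0 in Sox6- neurons (SD, n = 3 each), with a log2 difference of -0.44.

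Chrna3, the alpha subunit that pairs with beta4 in habenula and ganglia, had the largest limma log2 difference of the 8 genes. It lay at 1933, 1391 and 1679 in Sox6+ libraries 103, 825 and 1211 and at 1159.9, 263 and 389.5 in Sox6- ones. All Sox6+ values lay above all Sox6- values, and Sox6- library 103 lay nearest to them. Means were 1668 ± 271 in Sox6+ and 604 ± 485 in Sox6- neurons (SD, n = 3 each). This is a log2 difference of 1.75 (SE 0.51), with a 95% interval from 0.55 to 2.95, an adjusted p of 0.273 (limma) and an exact permutation p of 0.1. In the authors' deposited table the log2 fold change of Sox6- over Sox6+ was -1.47 (SE 0.45, adjusted p = 0.0429). DESeq2 on the recovered reads gave an adjusted p of 0.0438, and edgeR on those reads 0.458. Without Sox6- library 103 the log2 difference was 2.37 with an adjusted p of 0.0153 (limma), without Sox6- library 1211 it was 1.58 with an adjusted p of 0.793, and without Sox6- library 825 it was 1.30 with an adjusted p of 0.337.

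Chrna5, the accessory subunit that joins alpha4 and beta2 or alpha3 receptors, lay at 1339.7, 832 and 1141 in Sox6+ libraries 103, 825 and 1211. Its Sox6- values were 1997, 291 and 277. The highest and the lowest value of all 6 were both in the Sox6- group. The log2 difference was 0.99 with a 95% interval from -0.98 to 2.96 and an adjusted p of 0.682 (limma), where number 103 alone gave -0.58 and numbers 825 and 1211 gave 1.51 and 2.04. Without Sox6- library 103 it was 1.93 with an adjusted p of 0.035 (limma). Without Sox6- library 825 or 1211 it was 0.54 or 0.51, with adjusted p of 0.847 and 0.937 (limma), and edgeR on all 6 libraries gave 0.35.

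Chrnb4, the beta subunit that partners alpha3, had no read in Sox6+ library 825, where 0 reads allow up to 3.42 normalized counts by a floor of 3 reads, a limit that covers counting error only. It lay at 734 and 86.9 in Sox6+ libraries 103 and 1211 and at 263, 19.1 and 68.6 in Sox6- libraries 103, 825 and 1211. The number-103 library was the highest of each group and the number-825 library the lowest. The log2 difference was -0.84 with a 95% interval from -7.28 to 5.61 (adjusted p = 0.925, limma), and its sign was the opposite in the means, 274 ± 401 in Sox6+ and 117 ± 129 in Sox6- neurons (SD, n = 3 each), in edgeR at 1.22 and without Sox6+ library 825 at 1.82.

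Chrna7 had the lowest group means of the 8 genes, though Chrnb4 was lower in both number-825 libraries. It lay at 27.6, 28.5 and 95.2 in Sox6+ libraries 103, 825 and 1211, against 32.6, 118 and 21.3 in Sox6- ones. In each group 1 library, Sox6+ 1211 and Sox6- 825, held more than both others together. The limma log2 difference was -0.046 with a 95% interval from -1.79 to 1.70 (adjusted p = 0.987, limma), and its sign changed with single libraries and with quantile normalization.

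Per kilobase of exon (union of the exons in GENCODE M21), Chrna6 stood above all other subunit genes, at 4406 ± 1584 in Sox6+ and 2139 ± 1416 in Sox6- neurons (SD, n = 3 each). In Sox6+ neurons Chrna4 (431 ± 141), Chrna5 (353 ± 81.8), Chrna3 (317 ± 51.4) and Chrnb3 (309 ± 110.5) followed per kilobase, and none of these neighbours in the order was separated from the next in its range. Below them stood Chrnb4 (73.5 ± 108), Chrnb2 (27.2 ± 5.16) and Chrna7 (11.2 ± 8.60). Chrnb4 and Chrnb2 overlapped, and Chrnb4 was the higher in only 1 of the 3 Sox6+ libraries. It lay at 197, 0 and 23.3 in Sox6+ libraries 103, 825 and 1211, against 21.5, 31.7 and 28.3 for Chrnb2. In Sox6- neurons the order after Chrna6 was Chrna5 (274 ± 316), Chrnb3 (235 ± 179), Chrna4 (192 ± 157), Chrna3 (115 ± 92.2), Chrnb4 (31.4 ± 34.6), Chrnb2 (15.0 ± 4.86) and Chrna7 (12.7 ± 11.7), and no neighbours after Chrna6 were separated in range. These levels depend on how evenly reads cover each transcript, which the deposited values do not show.

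Chrna6 made up 63.5%, 79.8% and 75.2% of the summed level per kilobase of the 8 genes in Sox6+ libraries 103, 825 and 1211, and 52.6%, 79.0% and 75.0% in the Sox6- libraries. Both number-103 libraries had the lowest share of Chrna6 in their group. Chrna5 took 25.8% in Sox6- library 103, against 1.95% and 4.97% in Sox6- libraries 825 and 1211 and 3.75% to 10.4% in Sox6+ libraries. Chrna4 took 7.21% ± 0.677 in Sox6+ and 5.76% ± 1.76 in Sox6- neurons (SD, n = 3 each). Chrnb2 stayed under 1% in all 6 libraries.

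**Figure D2:**
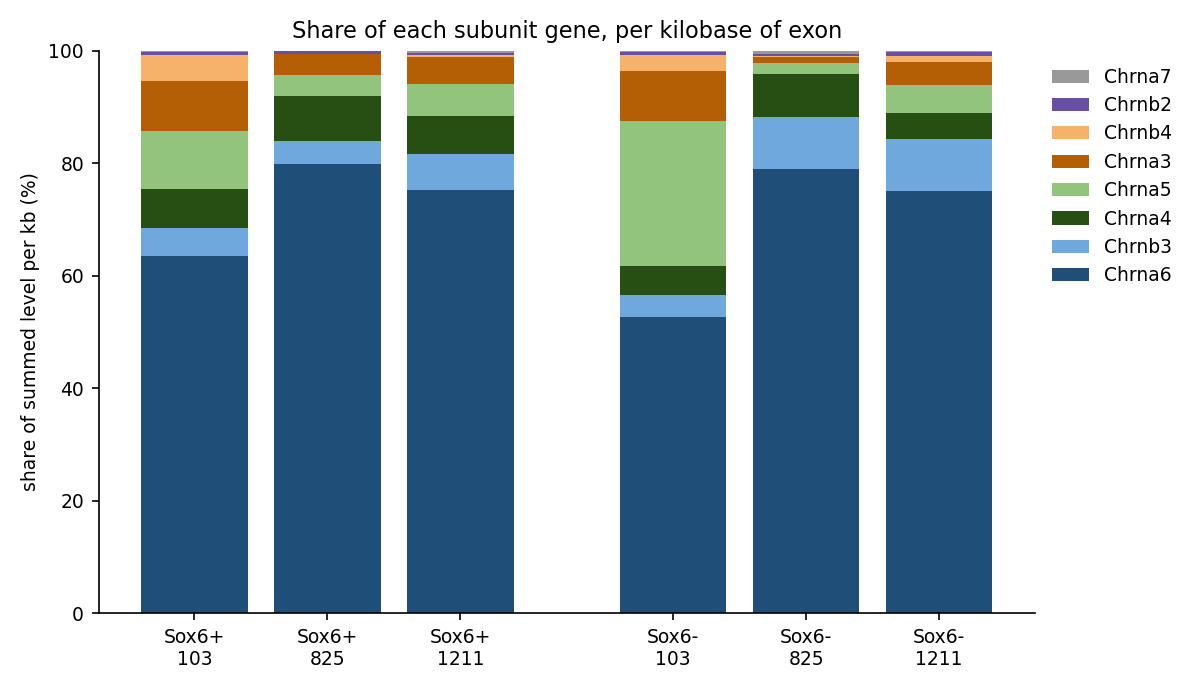
Share of each subunit gene in the summed level per kilobase of exon of the 8 genes (y axis, percent, stacked to 100) in each of the 3 Sox6+ and 3 Sox6- libraries (x axis). Chrna6 takes 52.6% to 79.8%, and Chrna5 takes 25.8% in Sox6- library 103.

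Ratios between subunit genes of the same library do not depend on the scaling between libraries, and 8 such ratios, per kilobase, were computed without a test. Chrna6 over Chrna4 lay at 9.21, 10.0 and 11.2 in Sox6+ libraries 103, 825 and 1211, against 10.4, 10.2 and 16.8 in Sox6- ones, so 5 of 6 libraries lay close together. Chrnb3 over Chrna6 lay at 0.0778, 0.0525 and 0.0862 in the Sox6+ libraries, against 0.0759, 0.116 and 0.125 in Sox6- ones. Chrna3 over Chrna5 was the 1 ratio of the 8 whose groups did not overlap, at 0.856, 0.993 and 0.874 in the Sox6+ libraries, against 0.345, 0.536 and 0.834 in Sox6- ones. Of single genes, 17.0% were separated in either direction, and no such share was computed for ratios, so this count is not read as a result. The ratio of these 2 cluster neighbours varied less over the Sox6+ than over the Sox6- libraries, and Sox6- library 1211 lay close to Sox6+ library 103.

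The subunit genes were also set against dopaminergic transcripts of the same library, without a test. These transcripts did not all differ alike between the groups. Limma log2 differences were 0.95 for Th, 1.48 for Ddc, 1.57 for Slc18a2 and 2.02 for Slc6a3. Of the other dopaminergic markers, Slc10a4, Pitx3, Drd2 and En1 had 1.41, 1.51, 1.41 and 1.03, but Nr4a2 had 0.21 with overlapping groups. The mean log2 level of Th, Slc6a3, Slc18a2 and Ddc, which make, take up and store dopamine, was 14.5, 15.4 and 15.3 in Sox6+ libraries 103, 825 and 1211 and 13.0, 14.7 and 12.9 in the Sox6- libraries, a difference of 1.51 between the group means. Relative to this mean, Chrna6 lay at -1.60, -1.40 and -1.46 on the log2 scale in the Sox6+ libraries, against -1.16, -1.26 and -1.01 in Sox6- ones. Its SD over 3 libraries was 0.10 in Sox6+ and 0.13 in Sox6- neurons, and every Sox6+ value was below every Sox6- value, with a difference of -0.35. Chrna4 lay at -4.02, -3.94 and -4.15 in Sox6+ and at -3.75, -3.82 and -4.28 in Sox6- libraries, a difference of -0.084 with overlapping groups. Chrna3 kept a positive difference of 0.24 but its groups overlapped, with -3.59, -4.97 and -4.55 in Sox6+ and -2.86, -6.64 and -4.32 in Sox6- libraries. On this relative scale 3 of the 8 genes (Chrna6, Chrnb3 and Chrna7) were separated with Sox6+ lower, where 30.8% of all genes were, and 31.0% in either direction, so this count is near the background. Whether the libraries differed in their content of dopaminergic cells or in transcript per cell, and the part of this in the differences of the subunit genes, was not tested.

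**Figure D3:**
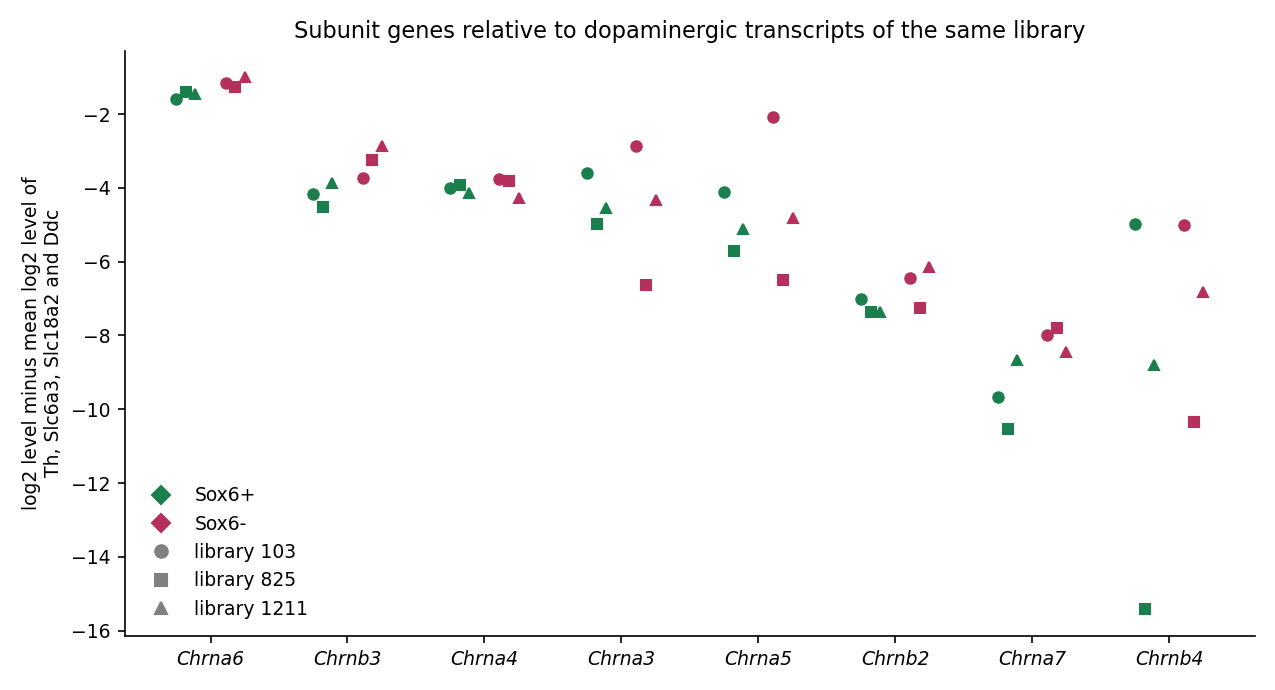
Level of each subunit gene as log2(normalized count + 1) minus the mean log2 level of Th, Slc6a3, Slc18a2 and Ddc in the same library (y axis); each point is 1 library, coloured by group with Sox6+ left of Sox6-, and shaped by library number. Chrna6 and Chrna4 form tight groups in all 6 libraries, whereas Chrna3, Chrna5 and Chrnb4 spread widely; the lowest Chrnb4 point is the library with no Chrnb4 read.

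Profiles over the 6 libraries were compared by the root mean square difference of centred log2 values. The comparison covered 9665 genes with a mean of at least 50, leaving out predicted genes, Rik clones, pseudogenes and symbols in accession form. The 3 genes nearest to Chrna6 were Kctd6 (0.132), Lmo4 (0.139) and Cpne7 (0.145). For Chrna5, the gene with the second highest mean per kilobase, they were Mfap3l (0.416), Esrrg (0.504) and Rimkla (0.531). That rank was narrow, at 313 per kilobase over all 6 libraries against 312 for Chrna4. Chrna5 lay at 639 in Sox6- library 103, against 93.1 and 88.7 in Sox6- libraries 825 and 1211. None of the compared genes followed Chrna5 as closely as the first 3 followed Chrna6. The groups of Chrna6 and its nearest genes all overlapped at Sox6- library 825.

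Chrnb4 was set beside 3 marker genes of habenular neurons by library number, and the markers followed it only in part. Gpr151, an orphan receptor gene that marks habenular neurons, lay at 5884, 0 and 11.1 in Sox6+ libraries 103, 825 and 1211, against 2215, 7.05 and 6.49 in Sox6- ones. Pou4f1, a POU-domain transcription factor of habenular neurons, lay at 297, 0 and 0 in Sox6+ and at 79.6, 0 and 25.04 in Sox6- libraries. Both were thus highest in the number-103 library of each group, as Chrnb4 was. In the other libraries they did not follow it throughout. Pou4f1 was at 0 in Sox6+ library 1211, where Chrnb4 lay at 86.9. Gpr151 was alike in Sox6- libraries 825 and 1211, where Chrnb4 lay at 19.1 and 68.6. The third marker fixed for this cell type, Nwd2, under its older symbol 3110047P20Rik, did not follow the number, at 1383, 1574 and 913 in Sox6+ and 675, 236 and 121 in Sox6- libraries. The 3 markers summed to 924 to 7564 in Sox6+ and 152 to 2970.1 in Sox6- libraries. Chrna2, an alpha subunit outside the 8 genes, had the same order of libraries as Chrnb4 within each group, at 267, 0 and 116 in Sox6+ and 505, 56.4 and 110.4 in Sox6- libraries. Markers of GABAergic neurons (Gad1, Gad2 and Slc32a1) summed to 6668, 5.69 and 1472 in Sox6+ libraries 103, 825 and 1211 and to 11532, 1181 and 6300.1 in the Sox6- libraries, again with the number-103 library highest in each group. Whether separate habenular or GABAergic cells were present, and their part in the levels of Chrnb4, Chrna3 and Chrna5, was not tested. Leaving out both number-103 libraries was an alternative chosen after seeing the data. Chrna3 and Chrna5 then had log2 differences of 2.25 and 1.77, with adjusted p of 0.0294 and 0.0436 (limma), while 35 genes were higher and 35 lower in all. Within number 103 both genes had their lowest difference of the 3 numbers, at 0.74 and -0.58. Leaving that number out thus had to raise both differences, and these p-values are not read as a result.

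**Figure D4:**
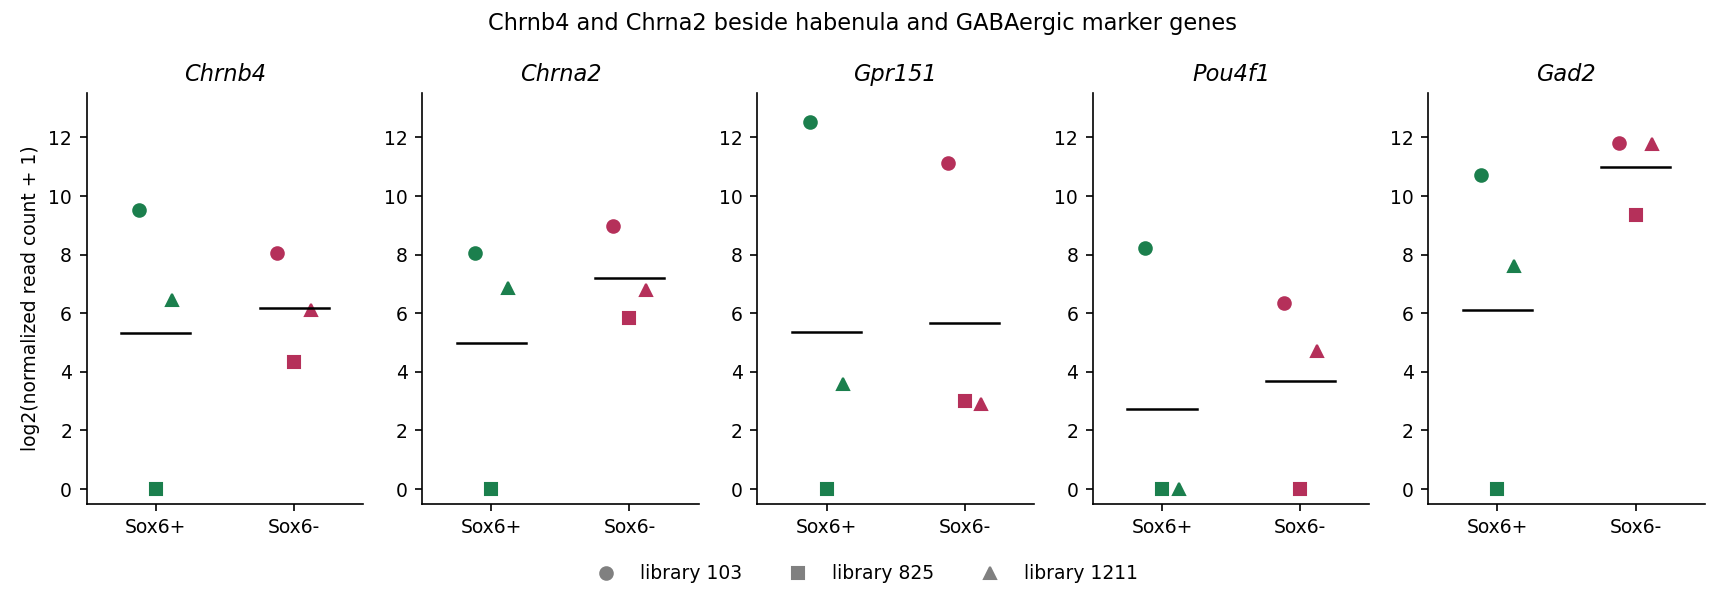
log2(normalized count + 1) of Chrnb4, Chrna2, the habenula markers Gpr151 and Pou4f1 and the GABAergic marker Gad2 (y axis, same range in all panels) in the Sox6+ and Sox6- groups; points are libraries, shapes are library numbers and bars are group means. The circles of number 103 are the highest point of both groups in the first 4 panels, and Sox6+ library 825 (square) lies at 0 in all 5 panels. Not shown are the habenula marker Nwd2, which was highest in library 825 among Sox6+ libraries, and the GABAergic markers Gad1 and Slc32a1. Slc32a1 lay at 5.69 in Sox6+ library 825.

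Genes that act on nicotinic receptors or on acetylcholine were read from 5 further lists with 35 genes, of which 23 were tested. None passed the threshold (limma), and at an unadjusted p under 0.05 there was 1 higher and 6 lower in Sox6+ neurons, against 5.21% of all genes higher and 6.17% lower. EdgeR called none of them, and DESeq2 called Lypd6 alone. Over all 13175 genes edgeR called 1 higher and 5 lower, and DESeq2 called 171 higher and 216 lower. Of the nicotinic subunits outside the 8 genes, Chrna1 and Chrna2 passed the filter, and Chrna9, Chrnd and Chrng had no read in any library. Chrna1, the muscle alpha subunit, stayed at or below 15.9 in Sox6+ and 20.1 in Sox6- libraries.

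Among 7 genes of receptor assembly and trafficking, the median log2 difference was 0.061 and the intervals were narrow. Tmem35, listed now as Tmem35a and known as NACHO, a chaperone needed to assemble alpha7 and other receptors, lay at 1474, 1581 and 1917 in Sox6+ libraries 103, 825 and 1211, against 2173, 2422 and 2383 in Sox6- ones. The groups did not overlap, with Sox6+ lower, a log2 difference of -0.50 (SE 0.15, adjusted p = 0.260, limma). Vsnl1, a calcium sensor that binds alpha4, had a log2 difference of 0.48 and an adjusted p of 0.359, and Ric3, another chaperone, of 0.25 and 0.579 (limma).

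Of the 8 Ly6 family genes, whose products are toxin-like proteins that bind nicotinic receptors, 5 were tested and 4 of these had a negative difference, with a median of -0.58. Lypd6 lay at 0, 0 and 19.4 in Sox6+ libraries 103, 825 and 1211, against 213, 24.2 and 208 in Sox6- ones. All Sox6- values were above all Sox6+ values, but Sox6+ library 1211 and Sox6- library 825 lay close to each other. Limma gave a log2 difference of -5.25 (SE 1.41) and an adjusted p of 0.2, which was 0.0375 with DESeq2 and 0.43 with edgeR. With the library number as a block it was 0.0464 in limma and 0.127 in edgeR. In the authors' deposited table its adjusted p was 0.395. Lypd6b lay at 7.89, 179 and 31.4 in Sox6+ and at 172, 249.8 and 181 in Sox6- libraries, and Ly6h had a log2 difference of -0.58, with adjusted p of 0.407 and 0.389 (limma).

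Of the genes of acetylcholine itself, 5 of 7 were tested and the median difference was -0.072. Ache, the esterase that breaks acetylcholine down, was abundant in all libraries, at 5371, 8761 and 5663 in Sox6+ and 5137, 8759 and 6879 in Sox6- libraries 103, 825 and 1211. Its 2 number-825 libraries were the highest of their groups and differed little. Slc18a3 and Slc5a7, the vesicular acetylcholine and choline transporters, overlapped between the groups, with adjusted p of 0.749 and 0.867 (limma). Slc18a3 lay at 28.6, 0 and 0.924 in Sox6+ libraries 103, 825 and 1211, against 39.3, 0 and 72.3 in Sox6- ones. Slc5a7 lay at 17.8, 15.9 and 0 in Sox6+ libraries, against 13.4, 0 and 215 in Sox6- ones, so that its level stood out in Sox6- library 1211 alone. Prima1, the membrane anchor of the esterase, had a log2 difference of 0.39 and an adjusted p of 0.830.

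All 4 muscarinic receptor genes that were tested had negative differences, as did 51.9% of all genes, with a median of -2.28. Chrm1 and Chrm2 were at 0 in Sox6+ library 825, as were the GABAergic markers Gad1 and Gad2. Whether separate GABAergic cells were present, and their part in these differences, was not tested. Chrm5, the muscarinic receptor best known in midbrain dopamine neurons, lay at 51.3, 51.2 and 84.1 in Sox6+ libraries 103, 825 and 1211, against 124, 114 and 179.9 in Sox6- ones. The groups did not overlap, and limma gave a log2 difference of -1.16 (SE 0.40, adjusted p = 0.317). Chrm3 and Chrm2 had log2 differences of -2.12 and -3.43 with adjusted p of 0.436 and 0.462 (limma). Chrm2 was at 134, 0 and 2.77 in Sox6+ and 84.4, 50.4 and 144 in Sox6- libraries, so its difference rests on Sox6+ libraries 825 and 1211. Without Sox6+ library 103 it was -5.47 with an adjusted p of 0.0443 (limma), and edgeR on all 6 libraries gave -1.03 with an adjusted p of 0.874.

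**Figure D5:**
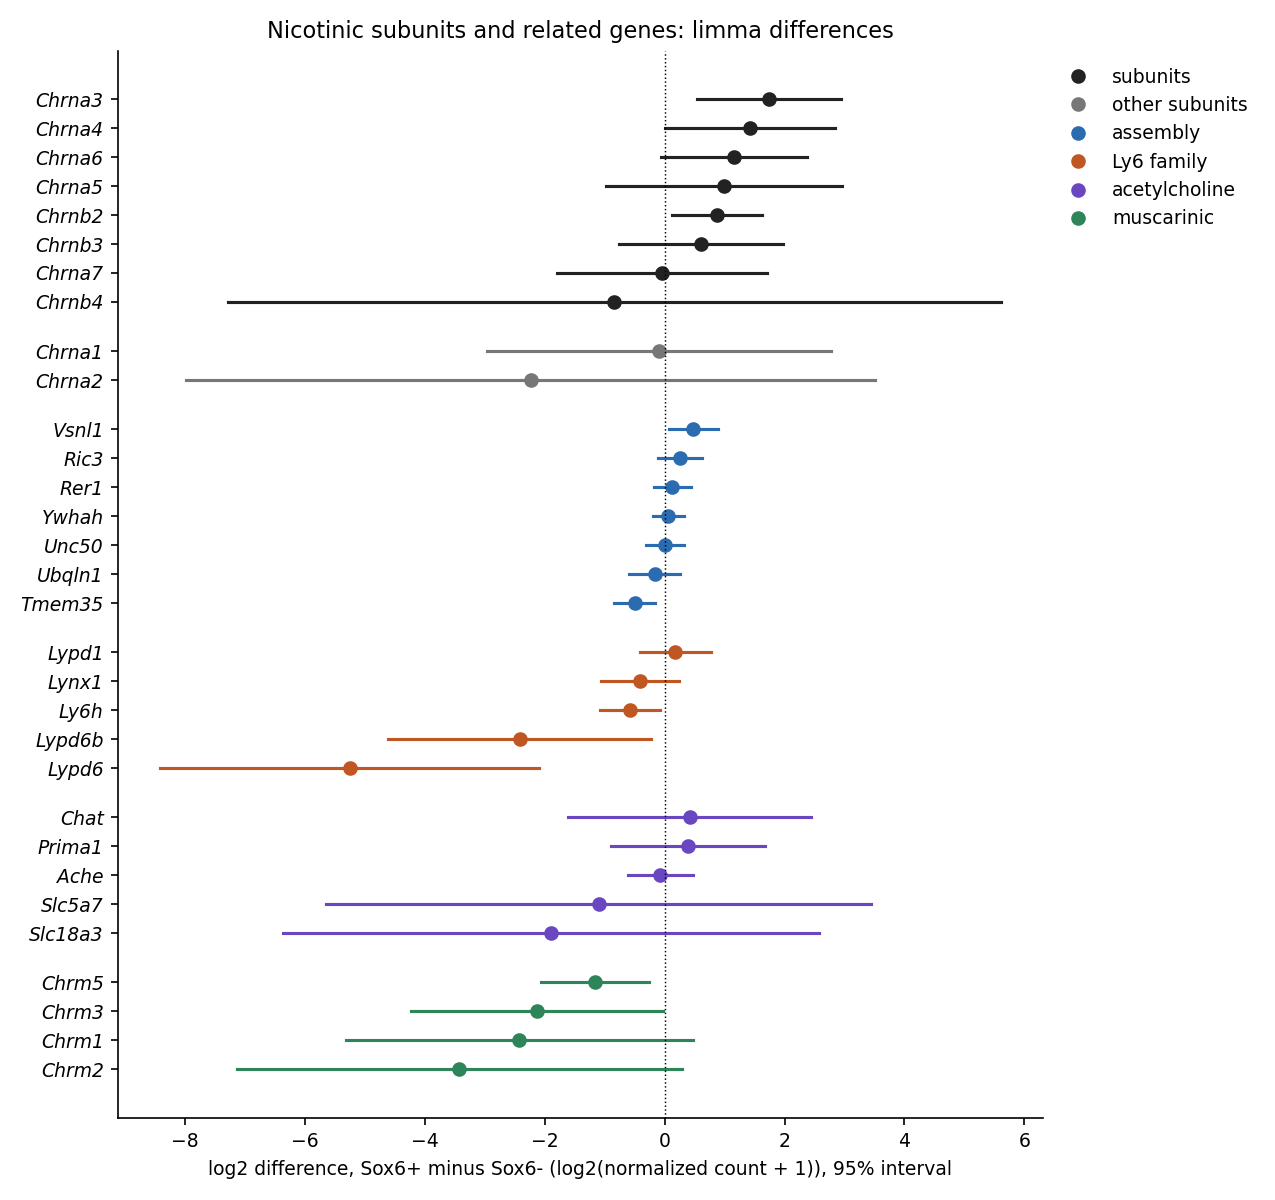
Log2 differences, Sox6+ minus Sox6- on log2(normalized count + 1) (x axis), with 95% intervals from limma for the 8 subunit genes and the tested genes of the 5 further lists (rows, grouped and coloured by list). Intervals of assembly genes are narrow, those of Chrnb4 and Chrna2 are the widest of the subunit genes, and those of Chrna3, Chrna4 and Chrnb2 lie above 0 without adjustment.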

How the data were processed

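Per the labels' protocols, RNA of sorted neurons was made into stranded TruSeq libraries. Named in the submitters' processing notes are STAR, HTSeq, DESeq2, cutadapt and FastQC, with the builds GRCm38 and mm10 and without settings. The authors deposited a normalized signal per gene and library (counts scaled by size factors), and their own results for Sox6- over Sox6+: a log2 fold change, a standard error, a test score and p-values. Every value above 0 was a whole multiple of its library's step, within 0.01 (100% of values), and reads were recovered from the steps, 0.924 to 1.14 per read.

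On log2(value + 1), limma (trended, robust) compared 3 Sox6+ with 3 Sox6- libraries, two-sided, with Benjamini-Hochberg adjustment over all genes with a mean of at least 10. Log2 differences are on that scale, and for low genes they depend on the added 1 and on values at 0. They can lie above or below those of edgeR in size. Limma and edgeR gave -3.43 and -1.03 for Chrm2, -5.25 and -4.47 for Lypd6, and -0.046 and -0.19 for Chrna7. With 0.5 or 8 added in place of 1, limma gave -3.82 or -2.02 for Chrm2 and -5.92 or -3.26 for Lypd6. The test was also run on simulated counts with set changes. These were drawn independently for each library, so differences by library number and libraries that stand apart were not covered. Named genes were all members, the 3 of smallest p in each further list, cell type markers, the nearest profiles of 2 members, and Adar; Ache was named after its values were seen. The members and lists were chosen with earlier results of these data known. The 20 alternatives are listed in the closing section. Pairs of libraries all differed: the lowest chi-square of any pair was 34.4 per gene. Tests used limma 3.58.1, DESeq2 1.42.0 and edgeR 4.0.16 under R 4.3.3. Other values used scipy 1.17.1, pandas 2.3.3 and numpy 2.4.6 under Python 3.11.15, and figures matplotlib 3.10.9. Symbols were matched to GENCODE M21 (GRCm38) for gene positions and exon lengths.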

Additional observations from a re-analysis of the deposited data

How the results depend on the processing

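Over 20 alternatives, of which 1 (without both number-103 libraries) was chosen after seeing the data, the signs of the log2 differences of Chrna3, Chrna4, Chrna5, Chrna6, Chrnb2 and Chrnb3 did not change, with ranges of 1.30 to 2.37, 0.94 to 2.05, 0.35 to 1.93, 0.90 to 1.66, 0.71 to 1.13 and 0.13 to 1.197. The sign of Chrna7 turned to 0.23 with quantile normalization, 0.62 with library weights, 0.94 without both number-825 libraries and 0.048 without both number-103 libraries, and single libraries left out gave -0.62 to 0.66. The sign of Chrnb4 turned to 1.22 with edgeR, 1.23 with DESeq2, 0.076 with edgeR and the block, 0.32 with library weights and 0.91 without both number-825 libraries, and single libraries left out gave -2.94 to 1.82. Of the 8 genes, 1 was higher with DESeq2, 2 without both number-103 libraries, and 0 to 2 with single libraries left out (2 without Sox6- library 103). Of the 23 genes of the further lists, 1 was lower with the block, 1 with DESeq2, and 0 to 1 with single libraries left out.

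Over all genes, 17 were higher and 23 lower. The counts higher and lower were 134 and 133 with the library number as a block, 34 and 35 with a pseudocount of 8, 7 and 14 with no filter, 30 and 39 with quantile normalization, 4 higher without trend or robust moderation, 1 and 5 with edgeR, 63 and 57 with edgeR and the block, 171 and 216 with DESeq2, 95 and 111 with library weights, 1 and 1 without both number-825 libraries, and 35 and 35 without both number-103 libraries. With a pseudocount of 0.5, a filter at a mean of 50 or TMM scaling they were within 1.5 times of 17 and 23, as was the count lower without trend or robust moderation, at 20. Single libraries left out gave 0 to 59 higher and 1 to 102 lower. The causes were not tested. Whether the number pairs libraries is not given: deviations of same-numbered libraries from their group means correlated at 0.268, 0.172 and 0.079 for 103, 825 and 1211, and every library correlated best with its own number. With the block the adjusted p of Chrna3 was 0.0579 (limma), and 0 of the 8 genes passed. Depth was low for Chrna7, with 23 to 117 reads per library, and for Chrnb4 in some libraries, with 0 to 744.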

Other observations

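Of the 6 libraries, Sox6- library 1211 had the highest levels of Isl1 and Chat. Isl1, a transcription factor of motor and other cholinergic neurons, lay at 0 in all 3 Sox6+ libraries and at 76.7, 0 and 459 in Sox6- libraries 103, 825 and 1211. Chat, which makes acetylcholine, lay at 46.4, 58.1 and 34.2 in Sox6+ and at 46.05, 7.05 and 109 in Sox6- libraries. Sox6+ library 825 held Mbp, a myelin gene, at 1944, against 64.1 and 114 in Sox6+ libraries 103 and 1211 and 65.2 to 139 in the Sox6- libraries.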
